A study of Mus musculus with 8 samples.

Results

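The 10 genes described here are transcripts that mark microglia, the resident macrophages of the brain. They comprise the 3 chains of complement C1q (C1qa, C1qb and C1qc), the signalling adaptor Tyrobp, the surface receptors Cx3cr1, P2ry12 and Csf1r, and the markers Tmem119, Aif1 and Cd52. They were taken from a list of names, matched by gene symbol in the control tables and by Entrez identifier in the mutant tables, and all 10 were found among the 17673 genes measured in both kinds of table. All 10 also passed the filter on low values, which left 12950 genes. The libraries were hippocampal RNA of C57BL/6 mice, in 4 groups of 2: mice with a CRISPR knockout of Pyk2 (KO), mice carrying a CRISPR-made Y402F form of Pyk2 (Y402F), and wild-type mice named as controls of the knockout line (KO controls) or of the Y402F line (Y402F controls). The gene Ptk2b encodes Pyk2, a tyrosine kinase that phosphorylates itself at Y402. The labels describe every mouse of the series as transgenic, the controls too, and give no age, sex, founder or number of animals per library. How separate the libraries of a group are is thus unknown, and the p-values refer to the spread between them, technical or not.

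Microglia enter the brain in the embryo and maintain themselves there, which depends on the growth factor receptor encoded by Csf1r. C1q is the recognition protein that starts the classical complement cascade. It is assembled from A, B and C chains, in the adult brain it comes mainly from microglia, and it can tag synapses in the hippocampus for removal. Ptk2b is best known as a kinase of neurons in this tissue.

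The C1q chains are the most closely linked of these genes on the genome. They lie side by side on the minus strand at chr4:136880129-136898803, a span of 18675 bases on GRCm38. In the direction of transcription C1qa comes first (136895917 to 136898803), C1qc second (136889804 to 136893065) and C1qb last (136880129 to 136886187). No other annotated gene overlapped any of the 3, and none of their 31-base words occurred in another gene's transcripts, so stretches of that length identify their chain. The stretch before the C1qb start is shown because C1qb and C1qc moved together below, with sequence from RefSeq on GRCm38.p6, chr4:136886201-136886450, minus strand. Promoter windows were found for 5 of the 10 genes (P2ry12, C1qb, C1qc, Cx3cr1 and Aif1). Capitals mark matches on either strand to GAGGAA, the core bound by the myeloid factor PU.1 (gene Spi1), and to GGAAGT, a core shared by factors of the ETS family, to which PU.1 belongs.
C1qb: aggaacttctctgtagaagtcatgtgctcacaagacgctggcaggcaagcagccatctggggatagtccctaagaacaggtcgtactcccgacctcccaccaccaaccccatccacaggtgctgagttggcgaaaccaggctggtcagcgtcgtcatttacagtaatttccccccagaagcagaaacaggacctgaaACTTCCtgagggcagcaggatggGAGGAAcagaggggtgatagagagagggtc
C1qc: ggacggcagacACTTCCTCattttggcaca
P2ry12: agctaacaagaaGGAAGTtccccagtgaca

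The C1qb window held GGAAGT on the reverse strand, starting at position -53 from the RefSeq start, and GAGGAA at -30. The C1qc stretch (chr4:136893091-136893120) held both motifs on the reverse strand, overlapping each other, from -195 and -193. P2ry12, which did not move with the C1q genes, had GGAAGT at -51 (chr3:59263019-59263048). The Aif1 window had GAGGAA at -7 and the Cx3cr1 window had no match. Annotated exons of C1qc, Cx3cr1 and Aif1 reached into their own windows, and an exon of Med12l into that of P2ry12. Positions count from the RefSeq start, which is not the gene boundary printed in this report. The Aif1 match lay within the Aif1 span given below, and the whole Cx3cr1 window (120068297 to 120068546) within that of Cx3cr1. The C1qc window (136892915 to 136893164) crossed the C1qc boundary. Among 32851 promoter windows of 250 bases, 23.3% held GAGGAA, 19.7% held GGAAGT and 36.7% held at least 1 of them, so these matches are common and describe the letters only.

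The other members are scattered. Tyrobp lies on chromosome 7 (30413760 to 30417585, plus strand), Tmem119 on chromosome 5 (113793729 to 113800516, minus strand) and Aif1 on chromosome 17 (35170991 to 35176068, minus strand), each clear of other genes. P2ry12 (chromosome 3, 59216272 to 59262871) lies opposite Med12l, Cd52 (chromosome 4, 134082448 to 134095082) overlaps Crybg2, Csf1r (chromosome 18, 61100598 to 61132149) overlaps Hmgxb3, and the long annotated span of Cx3cr1 (chromosome 9, 119901616 to 120069879) crosses 9 genes. No source used here says whether the counting used strand, so reads of these 4 and of their overlapping partners may not be told apart. Words of 31 bases shared with other genes made up 3.28% of those of Cx3cr1, 14.9% of those of Csf1r and 10.4% of those of Cd52.

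The mutant libraries held 5756180 to 6017219 expected counts, and the depth of the controls is unknown, since their tables hold no counts. Ptk2b, the targeted gene, stood at 55.8 and 68.4 scaled FPKM in KO (FPKM brought to a common scale over genes), against 307 to 394 in the other 6 libraries. Some features of the whole libraries ran along with the groups. Xist and Ddx3y gave a female pattern in KO 1, Y402F 1 and both KO controls, and a male pattern in KO 2, Y402F 2 and both Y402F controls. Choroid plexus genes summed to 1142 and 1167 scaled FPKM in the Y402F controls and 750.8 in Y402F 2, against 39.5 to 53.6 in the other 5. Mutant and control values came from different pipelines, so genotype and processing cannot be told apart wherever a mutant is set against its controls.

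The levels of the 10 genes spanned about an order of magnitude, and only part of their order was the same in every group (plot of levels by library). FPKM divides by transcript length, but differences between libraries still ran with length, as given below. Ranks of genes of unlike length are therefore approximate. As means over the 4 groups, C1qa was at 60.6 and C1qb at 60.4 scaled FPKM. These 2 were not separated, since C1qa was the higher in only 3 of 8 libraries. C1qc followed at 45.0, below C1qb in 8 of 8 libraries, and Tyrobp at 28.5, below C1qc in 8 of 8. Tyrobp and Csf1r (25.3) changed places, with Tyrobp the higher in 3 of 8 libraries. Csf1r exceeded P2ry12 (16.9) in 8 of 8. P2ry12 exceeded Cx3cr1 (12.6) in 6 of 8, Cx3cr1 exceeded Tmem119 (11.6) in 5 of 8, Tmem119 exceeded Aif1 (9.49) in 5 of 8, and Aif1 exceeded Cd52 (6.06) in 6 of 8, so the order below P2ry12 was not fixed. The 10 genes summed to 271 and 277 scaled FPKM in KO, 225 and 267 in Y402F, 347 and 357 in KO controls and 249.1 and 219.2 in Y402F controls. As a share of all joined FPKM in the library they were 0.0561 to 0.0657% in the mutants. They were 0.0232 and 0.0244% in the KO controls and 0.0264 and 0.0226% in the Y402F controls, so on that measure the wild-type pairs overlapped. The share also depends on the library total, which differed between groups. Over all genes of a table, FPKM summed to 384323 to 413544 in the mutants. It summed to 3253974 and 3267638 in the KO controls and 2605463 and 2693245 in the Y402F controls.

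**Figure D1:**
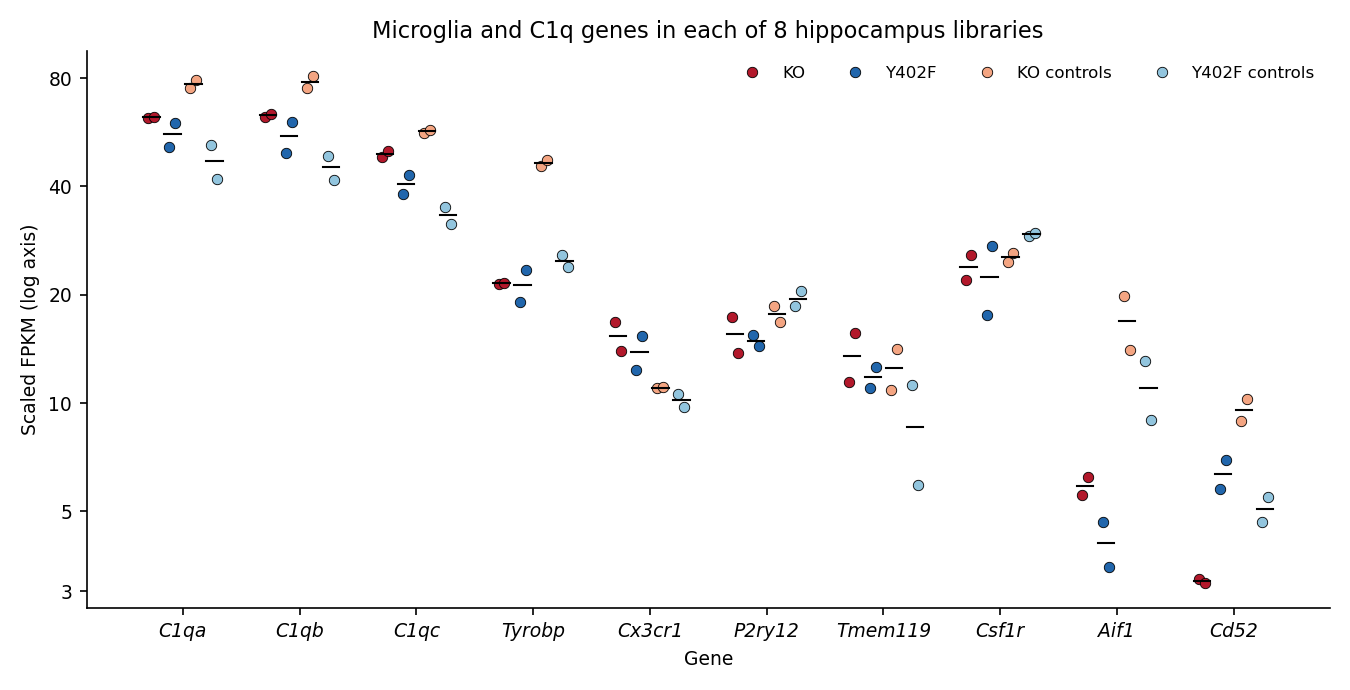
Scaled FPKM (log axis) of each of the 10 genes in each library, coloured by group, with a line at the mean of the 2 libraries. The C1q chains and Tyrobp sit highest in the KO controls, Csf1r and P2ry12 do not, and Aif1 is lower in all 4 mutant libraries than in all 4 controls.

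Genes that mark other cells give the setting for these levels. Of 12 genes of perivascular macrophages and monocytes, none was at 0 in every library. The defining Cd163 was at 0.0941 to 0.589 scaled FPKM, Mrc1 (the mannose receptor) at 0.230 to 1.29 and Ccr2 (the monocyte chemokine receptor) at 0 to 0.347. The 12 together summed to 3.36 to 5.97 in the mutant and 30.7 to 39.6 in the control libraries, of which Ly6c2 alone made up 16.2 to 21.3 in the controls. Of the 12 only Ly6c2, Pf4, Cbr2 and Stab1 passed the filter on low values. In the controls Stab1 was at 3.41 to 9.69, Pf4 at 1.46 to 5.43 and Cbr2 at 1.70 to 2.66. In the mutants Stab1 was at 1.42 to 2.15, Pf4 at 0 to 0.928 and Cbr2 at 0.177 to 0.888. Ly6c2, Pf4 and Cbr2 were under 1 scaled FPKM in every mutant library. They passed the filter, a mean over all 8 libraries, only through the controls. Against their controls limma called all 4 lower in KO and 3 in Y402F. For genes kept in this way a lower value in the mutants was largely built in. The shares of all genes called lower, 20.9% and 19.3%, are therefore no fitting background for these calls. Genotype and processing cannot be told apart there. Genes of lymphocytes and neutrophils summed to 1.27 to 5.12, with 9 of 12 measured. The neuronal Slc17a7, a vesicular glutamate transporter of the hippocampus, stood at 481 to 692 scaled FPKM. In tissue RNA a lower number of microglia and less RNA per microglial cell cannot be told apart.

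Both wild-type pairs carry the normal Pyk2 gene, per the labels, yet the C1q chains, Tyrobp and Cd52 were higher in the pair of the knockout line. In the comparison of KO controls with Y402F controls, from tables of one format, limma called 5 of the 10 genes, all higher in the KO controls. Fitted on the 4 control libraries alone, 2 stayed called, C1qc (limma adjusted p = 0.0457) and Tyrobp (limma adjusted p = 0.0414), and C1qa, C1qb and Cd52 did not (limma adjusted p = 0.0769, 0.0557 and 0.0858). The levels of the 5 in the KO controls were 164 to 189% of those in the Y402F controls. Over all 12950 genes 8.0% were called, and 4.83% were called higher. The median log2 difference of the 10 was 0.65, against -0.02 over all genes tested.

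C1qa, the A chain, measured 75.3 and 79.1 scaled FPKM in the KO controls and 52.1 and 41.9 in the Y402F controls. C1qb, the B chain, was at 75.3 and 81.1 against 48.7 and 41.8, and C1qc, the C chain, at 56.5 and 57.4 against 35.1 and 31.4. In each of the 3 both KO controls lay above both Y402F controls, with a clear gap. The log2 differences were 0.71 for C1qa (SE 0.13, limma adjusted p = 0.0195), 0.78 for C1qb (SE 0.12, limma adjusted p = 0.0156) and 0.76 for C1qc (SE 0.11, limma adjusted p = 0.0117). The chains thus differed by nearly the same amount. For each of them the confidence bound that Cufflinks gave lay 8.67 to 13.7% above the value; it covers the estimate within 1 library, not variation between animals.

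Tyrobp encodes DAP12, the membrane adaptor through which receptors such as TREM2 signal. Its values were 45.7 and 47.3 scaled FPKM in the KO controls and 25.9 and 23.8 in the Y402F controls, with no overlap. The difference was 0.88 on the log2 scale (SE 0.12, limma adjusted p = 0.0119). Cd52, a small glycoprotein anchored in the leukocyte membrane, was at 8.94 and 10.2 against 4.67 and 5.48, which is 0.80 higher on the log2 scale (SE 0.17, limma adjusted p = 0.0316). The Cufflinks bound for Cd52 lay 45.7 to 72.3% above the value in single libraries, so each of its values was imprecise. Aif1, which encodes the calcium-binding protein IBA1, was at 19.9 and 14.1 against 13.1 and 8.99. The KO controls were above the Y402F controls without overlap, but the log2 difference of 0.58 (SE 0.23) did not pass the test (limma adjusted p = 0.148).

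None of the 3 receptors passed the test. Csf1r, the receptor for the growth factors Csf1 and Il34, measured 24.7 and 26.1 scaled FPKM in the KO controls and 29.2 and 29.6 in the Y402F controls, where both values were the higher ones. Its log2 difference was -0.20, with a 95% interval from -0.64 to 0.23 (limma adjusted p = 0.522). P2ry12, the ADP receptor that guides microglial processes to damage, was at 18.6 and 16.8 against 18.6 and 20.4, overlapping between the groups (log2 difference -0.13, interval -0.46 to 0.20, limma adjusted p = 0.590). Cx3cr1, the receptor for the neuronal chemokine encoded by Cx3cl1, was at 10.99 and 11.05 against 10.6 and 9.75 (0.11, interval -0.24 to 0.46, limma adjusted p = 0.697). For these 3 receptors the upper interval bound lay below the differences measured for the C1q chains, though not below all of their intervals. The interval of Cx3cr1, up to 0.46, overlapped that of C1qa, which began at 0.42. With the length trend removed the differences of the C1q chains were smaller, as given below. Tmem119, a membrane protein used to tell microglia from other macrophages, was at 10.9 and 14.2 against 11.2 and 5.91, and its interval of -0.08 to 1.17 around 0.55 allowed both no difference and a difference as large as that of C1q (limma adjusted p = 0.238).

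Counting only whether libraries overlapped, 8 of the 10 genes had both libraries of one wild-type pair above both of the other, 7 of them higher in the KO controls and Csf1r lower. Over all genes tested 59.0% were separated in this way, so the count by itself says little. The calls rested on few libraries. With 1 library left out the number called was 3 without KO control 1, 2 without KO control 2, 4 without Y402F control 1 and 0 without Y402F control 2. C1qc and Tyrobp lost the call only in the last of these (limma adjusted p = 0.0530 and 0.0525), C1qb also without KO control 2, C1qa also without either KO control, and Cd52 without any of the 4. The log2 differences of the C1q chains and Tyrobp stayed between 0.56 and 0.94 throughout. The KO controls had a female and the Y402F controls a male pattern. With a term for this pattern, which rests on the mutant libraries, the C1q chains and Tyrobp stayed called at 0.82 to 1.02 and Cd52 did not (0.90, limma adjusted p = 0.0564). Choroid plexus genes differed between the same pairs (4 of 6 lower in the KO controls), and their part in these differences was not tested.

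**Figure D2:**
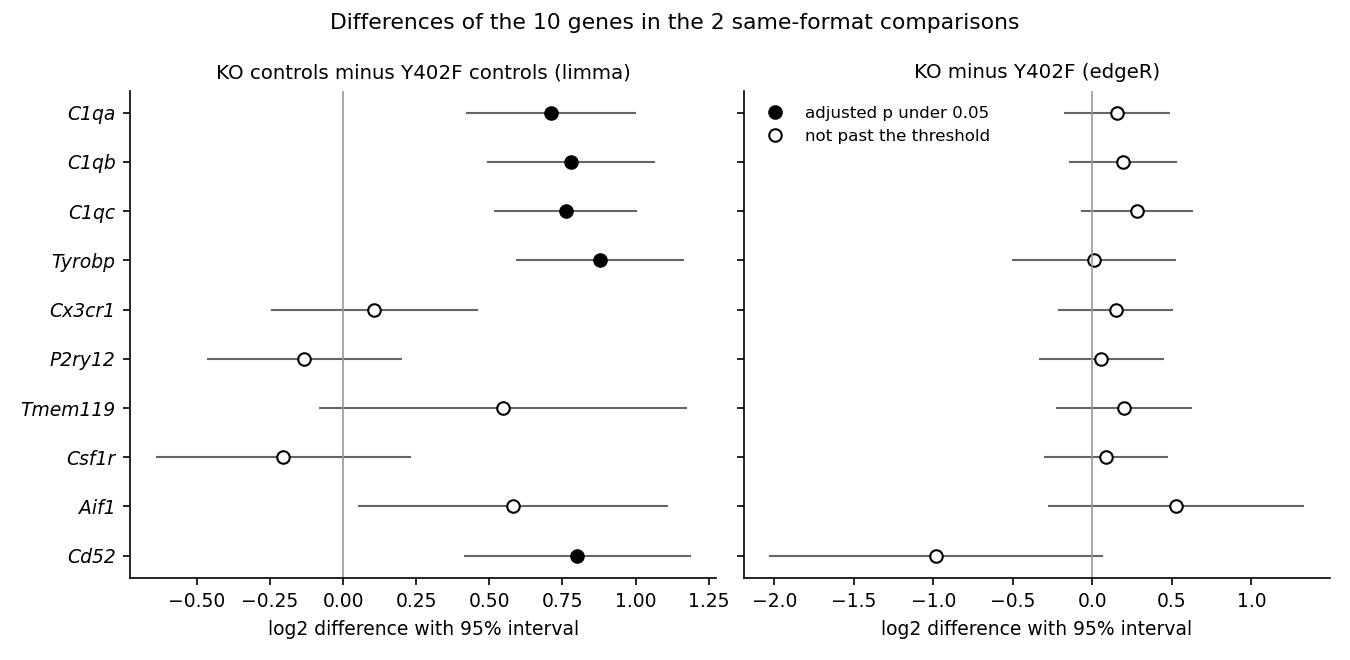
Log2 difference (point) with its 95% interval (line) of each gene, left for KO controls minus Y402F controls, right for KO minus Y402F; filled points passed an adjusted p of 0.05. On the left 5 points are filled, at 0.71 to 0.88, and on the right 0.

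The 10 genes also divided by the length of their transcripts. Cd52 (531 bases), Tyrobp (586), Aif1 (875), C1qb (1062), C1qc (1063) and C1qa (1082) all fell in the shortest of 10 length classes of 1295 genes each, 53 to 1093 bases. The differences of these 6 between the wild-type pairs were 0.58 to 0.88, with a median of 0.77. Tmem119 (2132 bases), P2ry12 (2338), Cx3cr1 (3753) and Csf1r (3875) were at -0.20 to 0.55, with a median of -0.01. All genes showed a slope of the same sign: the median difference ran from 0.31 in the shortest class through 0.04 in the fourth and -0.08 in the seventh to -0.25 in the longest, and 17.8% of the shortest class was called higher in the KO controls. As a description, Spearman's rho of length and difference was -0.398 over 12950 genes and -0.903 over the 10.

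Set against genes of their own length, the C1q chains were still higher. C1qa exceeded the median of its class by 0.40, C1qc by 0.45, C1qb by 0.47, Cd52 by 0.49 and Tyrobp by 0.57 on the log2 scale. Aif1 exceeded it by 0.27 and, among the longer genes, Tmem119 by 0.51 and Cx3cr1 by 0.19, while P2ry12 and Csf1r stood at -0.17 and -0.12 from theirs. With the length trend removed from each library, 3 of the 10 were called: C1qb at 0.53 (limma adjusted p = 0.0351), C1qc at 0.51 (limma adjusted p = 0.0299) and Tyrobp at 0.46 (limma adjusted p = 0.0481). C1qa was then at 0.47 (limma adjusted p = 0.0560) and Cd52 at 0.36 (limma adjusted p = 0.216).

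**Figure D3:**
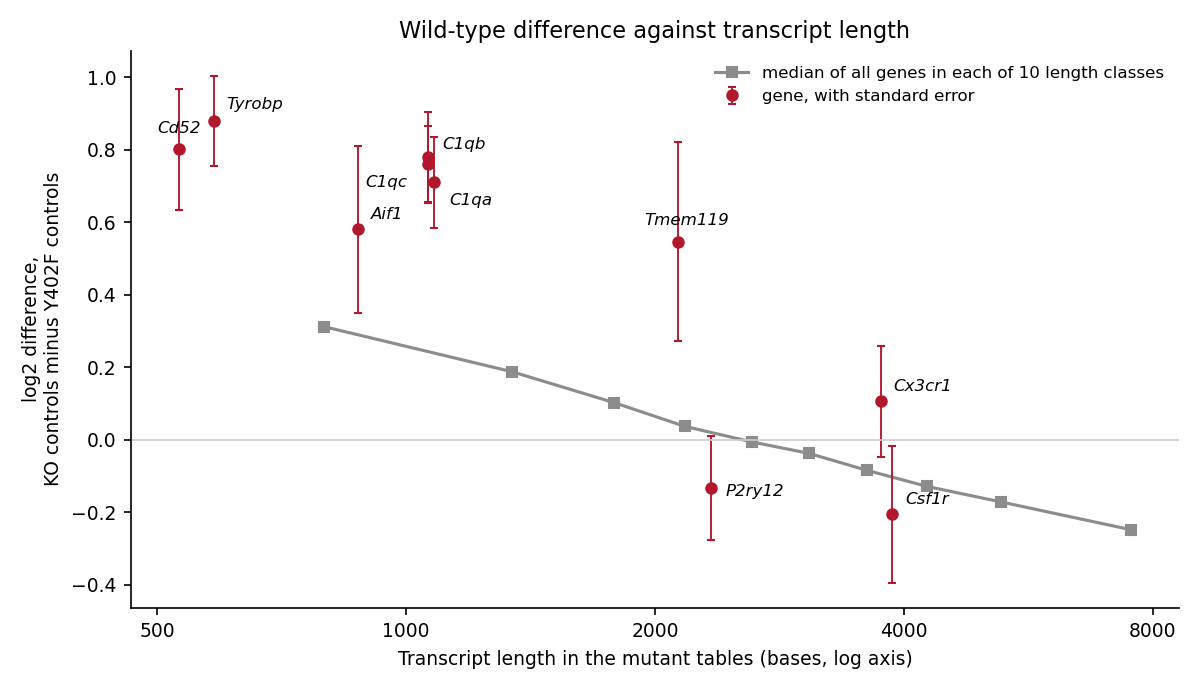
Log2 difference between the wild-type pairs (KO controls minus Y402F controls, bars are standard errors) against transcript length in bases (log axis), with the median of all genes in each of 10 length classes as grey squares. The medians fall from 0.31 to -0.25, and the C1q chains, Tyrobp and Cd52 lie above them.

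In the direct comparison of the mutants none of the 10 genes passed the test. KO and Y402F were compared with edgeR on expected counts, where 0 of 10 genes had an adjusted p under 0.05 and 0 had an unadjusted p under 0.05; DESeq2 and limma also called 0. Over 12946 genes edgeR called 1, Ptk2b, which is 0.00772%, and 250 had an unadjusted p under 0.05. Of the 10 log2 differences 9 were above 0, with a median of 0.15 against -0.01 over all genes. In 5 of the 10 both libraries of one group lay above both of the other, 4 higher and Cd52 lower in KO, while 25.7% of all genes were separated in this way.

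C1qa had 364 and 374 expected counts in KO and 302 and 365 in Y402F, C1qb 359 and 374 against 285 and 361, and C1qc 277 and 296 against 219 and 256. For all 3 chains Y402F 1 was the low library, and Y402F 2 lay close to KO in C1qa and C1qb. The log2 differences were 0.16 for C1qa (95% interval -0.17 to 0.48), 0.19 for C1qb (-0.14 to 0.53) and 0.28 for C1qc (-0.06 to 0.62), each with an edgeR adjusted p of 1.00. Tyrobp had 66 and 68 counts against 59 and 75, a log2 difference of 0.01 with an interval from -0.50 to 0.52. The differences between the wild-type pairs as first given (0.71 to 0.88, from the other test) are larger than the upper bounds of these 4 intervals, but with the length trend removed those of C1qa, C1qc and Tyrobp (0.47, 0.51 and 0.46) lie inside them. Differences that small cannot be told from none with these counts and the spread between 2 libraries a group.

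Csf1r had 472 and 568 expected counts in KO against 378 and 610 in Y402F, with the Y402F libraries on either side of KO. The differences of Csf1r (0.09), P2ry12 (0.06), Cx3cr1 (0.15) and Tmem119 (0.20) had intervals that together reached from -0.33 to 0.62. Cd52 had 9 and 9 counts in KO and 16 and 20 in Y402F, without overlap, and the largest difference of the 10, -0.98 (interval -2.02 to 0.06). Aif1 had 26 and 30 against 22 and 17, also without overlap, at 0.52 (interval -0.28 to 1.33). With so few counts the exact 95% Poisson interval of the 9 Cd52 counts ran from 4.12 to 17.1, and that of the 16 from 9.15 to 26.0, for counting error only.

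Set against their controls, KO and Y402F shared 1 low gene, Aif1. In KO it was at 5.54 and 6.25 scaled FPKM and in Y402F at 4.68 and 3.49, below all 4 control values given above. Its log2 difference was -1.36 in KO (SE 0.23, limma adjusted p = 0.00239) and -1.23 in Y402F (SE 0.23, limma adjusted p = 0.00455). Tyrobp was at 21.4 and 21.6 in KO, less than any control library, and Y402F at 19.2 and 23.5 lay only just below its own controls. The differences of Tyrobp were -1.08 in KO (SE 0.12, limma adjusted p = 0.000321) and -0.22 in Y402F (SE 0.12, limma adjusted p = 0.214). Cd52 was at 3.25 and 3.17 in KO and 5.77 and 6.95 in Y402F, the first below and the second above its own controls, with differences of -1.33 (SE 0.17, limma adjusted p = 0.000534) and 0.28 (SE 0.17, limma adjusted p = 0.241). With the length trend removed the values in KO were smaller but still called, -0.59 for Tyrobp (limma adjusted p = 0.00292) and -0.81 for Cd52 (limma adjusted p = 0.00450).

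KO thus had 3 of the 10 genes called, all lower, and Y402F had 1, also lower. Of all genes 37.6% were called in KO against its controls and 20.9% were called lower, and the shares for Y402F were 32.3% and 19.3%, so 3 of 10 and 1 of 10 are near or under the background. Genotype and processing cannot be told apart in either. The C1q chains were lower in KO than in the KO controls (C1qa 62.2 and 62.4, C1qb 62.5 and 63.6, C1qc 48.2 and 50.3 scaled FPKM) with differences of -0.30, -0.30 and -0.21, and in Y402F the differences were 0.25, 0.28 and 0.28 (C1qa 51.5 and 60.1, C1qb 49.6 and 60.6, C1qc 38.1 and 42.9). None of these 6 passed the test. Without scaling, where the median of all genes was itself at -0.12 in both lines, C1qa, C1qb and C1qc were called in KO, at -0.44, -0.44 and -0.34 (limma adjusted p = 0.0242, 0.0231 and 0.0329), while in Y402F they were then at 0.10, 0.13 and 0.13 and not called. With the length trend removed the order was the other way: in KO they were at -0.0075, -0.0015 and 0.10, and in Y402F they were called, at 0.34, 0.37 and 0.37 (limma adjusted p = 0.0455, 0.0261 and 0.0161). With the sex term C1qb was called in KO (-0.38, limma adjusted p = 0.0491) and C1qc in Y402F (0.33, limma adjusted p = 0.0422). Neither a fall in KO nor a rise in Y402F therefore held across these settings.

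The receptors and Tmem119 were not called in either mutant. Cx3cr1 was at 16.8 and 13.9 scaled FPKM in KO and 12.4 and 15.3 in Y402F, above all 4 control values, with differences of 0.44 (limma adjusted p = 0.0521) and 0.40 (limma adjusted p = 0.0763). P2ry12 was at 17.3 and 13.7 in KO and 15.4 and 14.4 in Y402F, and its differences were -0.19 and -0.37. Csf1r was at 22.0 and 25.8 in KO and 17.6 and 27.4 in Y402F, with differences of -0.09 and -0.41, and Tmem119 at 11.4 and 15.7 and at 10.99 and 12.6, with 0.10 and 0.47. Alternatives called 3 of the 4 in Y402F: P2ry12 without scaling (-0.51, limma adjusted p = 0.0292) and with the sex term (-0.47, limma adjusted p = 0.0387), Csf1r without Y402F 2 (-0.71, limma adjusted p = 0.0175) and Tmem119 without Y402F control 1 (0.89, limma adjusted p = 0.0317).

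The difference between the mutant effects, KO minus its controls less Y402F minus its controls, removes processing that acted alike in both lines. None of the 10 genes was called, nor were more than 4 genes over the whole table (0.0309%), among them Ptk2b. The unadjusted p was under 0.05 for 5 of the 10 and for 1684 of 12950 genes. The 5 were Cd52 at -1.60 (SE 0.24, limma adjusted p = 0.0997), Tyrobp at -0.86 (SE 0.18, limma adjusted p = 0.151), and C1qb at -0.58, C1qa at -0.55 and C1qc at -0.48 (limma adjusted p = 0.252, 0.274 and 0.264). All genes kept a slope with length in this difference, with medians from -0.27 in the shortest class to 0.21 in the longest, and with the trend removed the values were -1.22 for Cd52, -0.50 for Tyrobp, -0.37 for C1qb, -0.34 for C1qa and -0.27 for C1qc. These are the genes called between the wild-type pairs. The control values enter both comparisons, so the overlap is no separate finding.

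Ratios within a library do not depend on its scale, and for the C1q chains they were nearly constant. C1qb relative to C1qa stayed between 0.934 and 1.03 in all 8 libraries, a spread of 1.10 between the highest and the lowest ratio. C1qc relative to C1qa stayed between 0.673 and 0.806, a spread of 1.20. The chains kept these proportions across genotypes, lines and both pipelines, while C1qa itself ranged from 41.9 to 79.1 scaled FPKM.

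Over all 8 libraries no other member was tied to C1qa as closely. The spread was 1.76 for Tyrobp, 1.78 for Tmem119, 1.93 for Cx3cr1, 2.15 for Csf1r, 2.29 for P2ry12, 2.57 for Cd52 and 4.54 for Aif1. Much of the Tyrobp spread lay between the mutants (0.345 to 0.391) and the controls (0.496 to 0.606), where genotype and processing cannot be told apart. Counting error also widens the ratios of Cd52 and Aif1, which had 9 to 20 and 17 to 30 counts in the mutants. Csf1r was at 0.328 and 0.330 of C1qa in the KO controls and 0.560 and 0.706 in the Y402F controls, with no overlap, and at 0.341 to 0.455 in the mutants. P2ry12 was at 0.247 and 0.212 against 0.357 and 0.487 in the same control pairs. Aif1 had its low ratios, 0.0581 to 0.1, in the 4 mutant libraries and its high ones, 0.178 to 0.264, in the 4 controls. A ratio shows unequal values, not which of the 2 genes moved.

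**Figure D4:**
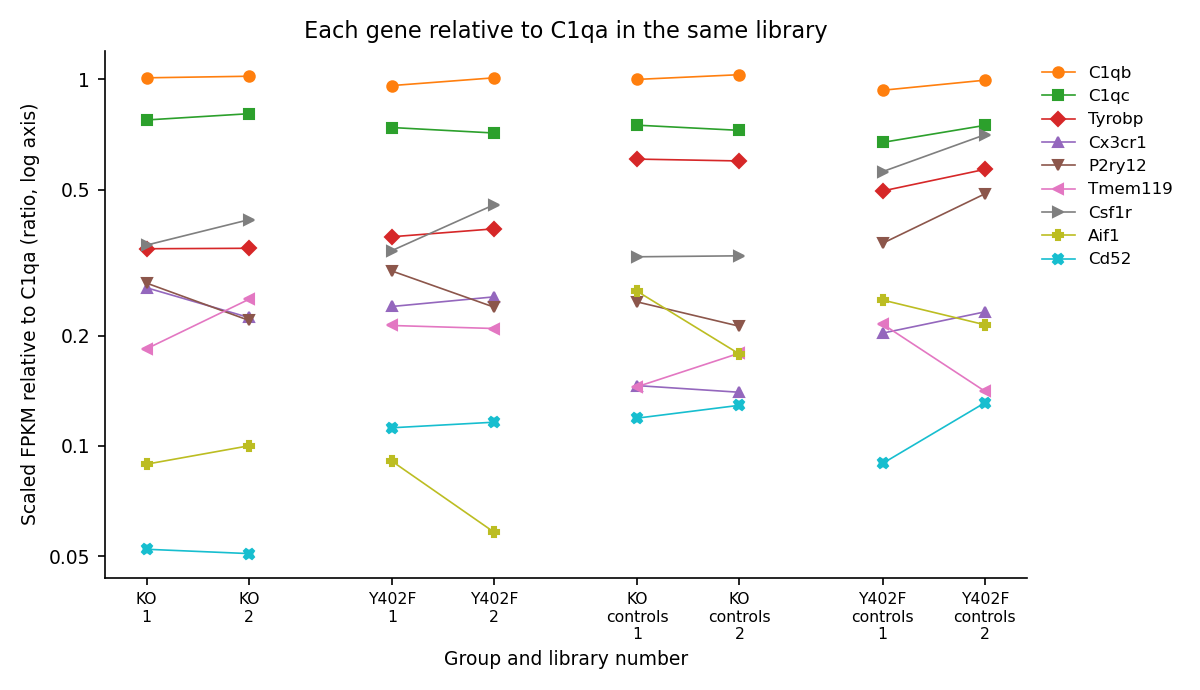
Scaled FPKM of 9 genes relative to C1qa in the same library (ratio, log axis), with the 2 libraries of each group joined by a line. C1qb and C1qc run level across the 8 libraries, Csf1r and P2ry12 are highest in the Y402F controls, and Aif1 is lowest in the mutants.

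The profiles over the 8 libraries, centred within the mutant and within the control tables, set the C1q chains and Tyrobp apart from the other members. They rest on the same values as above and are no separate finding. The mean profile of the 10 was widest between the KO controls (0.23 and 0.25) and the Y402F controls (-0.15 and -0.34). As a description over 8 libraries that share scaling and depth, Pearson's r with the mean of the other 9 genes was 0.994 for C1qa, 0.989 for C1qb, 0.966 for Tyrobp and 0.957 for C1qc. It was 0.720 for Tmem119, 0.570 for Aif1, 0.50 for Cx3cr1 and 0.356 for Cd52, and below 0 for Csf1r (-0.213) and P2ry12 (-0.592). Among 8931 genes whose mean reached 5 FPKM, the 8 closest to the mean profile of the 10 were Snph (0.992), Arhgef19, Abhd8, Prdx2 and Nme1 (each 0.990), and Tsc22d4, Cst3 and Dhrs7b (each 0.988). Only Cst3, which encodes the secreted protease inhibitor cystatin C, is on a list of microglial genes used here.

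Most other microglial genes were not called between the wild-type pairs. Of 32 tested homeostatic genes beside the 10, limma called 4 higher and 1 lower in the KO controls and 27 were not called, with a median of 0.28; over all genes 4.83% were called higher, and 17.8% in the shortest length class. The 4 were Itgb5, an integrin subunit, at 24.4 and 31.9 against 9.85 and 12.9 scaled FPKM (1.24, limma adjusted p = 0.0133), Fcer1g, an adaptor of the same signalling type as Tyrobp, at 33.9 and 33.2 against 14.8 and 18.9 (0.96, limma adjusted p = 0.0137), Fcrls, an Fc receptor-like protein, at 23.5 and 23.3 against 14.1 and 12.9 (0.76, limma adjusted p = 0.0182), and Spi1, the gene of PU.1, at 8.95 and 6.05 against 3.46 and 2.55 (1.07, limma adjusted p = 0.0416). The lower gene was Itgam, named here after its value was seen, which encodes a subunit of complement receptor CR3. It was at 6.80 and 11.2 in the KO controls and 18.0 and 16.1 in the Y402F controls (-0.89, limma adjusted p = 0.0448), the opposite direction to C1q. In KO against Y402F 0 of the 32 were called, with a median of 0.06.

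Between the wild-type pairs 2 other complement genes were called. Of 18 tested genes limma called 1 higher in the KO controls, Calr, a chaperone that can bind C1q at the cell surface (0.58, limma adjusted p = 0.0115), and 1 lower, Csmd1, a neuronal complement regulator (-0.65, limma adjusted p = 0.0420). The median of the 18 was 0.07, and over all genes 8.0% were called. Cr1l, another regulator, was at -0.50 (limma adjusted p = 0.0661) and Cfb, complement factor B, at 1.00 (limma adjusted p = 0.0737). C1s and Cfi are not analysed here. In KO against Y402F 0 of 18 were called. Against the controls, where genotype and processing cannot be told apart, 1 was called higher and 6 lower in KO, and 2 higher and 4 lower in Y402F. Over all genes 37.6% were called in KO, 20.9% lower, and 32.3% in Y402F, 19.3% lower. Among the lower genes in both mutants, C2 and C4a were under 1 scaled FPKM in every mutant library. They passed the filter only through the controls, so their lower values were largely built in.

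None of the signalling partners of Tyrobp was called between the wild-type pairs. Of 7 tested genes limma called 0, with a median of 0.01 and none at an unadjusted p under 0.05. Trem2, the lipid-sensing receptor that pairs with DAP12, measured 15.2 and 16.0 scaled FPKM in the KO controls and 13.3 and 10.04 in the Y402F controls. All 4 values were in the order of Tyrobp, but the difference of 0.40 did not pass (limma adjusted p = 0.224). Of 12 ligands and related receptors 1 was called, beside 8.0% of all genes. It was Il34, a neuronal ligand of Csf1r, at 45.2 and 44.6 against 23.1 and 25.5 (0.86, limma adjusted p = 0.0139). Csf1, the other ligand, was at 5.70 and 7.84 against 13.9 and 8.92 (-0.66, limma adjusted p = 0.105). The receptor Csf1r was not called beside them. Against the controls, 1 of the 7 partners was called in each mutant, Siglech, a lectin receptor that signals through DAP12. It was lower by limma at -1.11 for KO and -0.79 for Y402F (adjusted p = 0.00501 and 0.0256). Over all genes 20.9% were called lower in KO and 19.3% in Y402F, so 1 of 7 does not exceed the background. Genotype and processing cannot be told apart in either.

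Of 15 tested genes on a list of disease-associated microglia genes, 5 were higher in the KO controls, with limma adjusted p from 0.0115 to 0.0453. They were Fth1, the ferritin heavy chain (0.60), Cst3 (0.79) and Ctsd, a lysosomal protease (0.44). The others were Apoe, the lipid carrier (0.58), and Cd63, a tetraspanin named after its value was seen (0.60). The brain also expresses these outside microglia. Other cell types gave calls in the same comparison, to be read against the same 4.83%: 3 of 10 astrocyte genes, 2 of 10 oligodendrocyte genes and 4 of 5 blood genes were higher in the KO controls, 0 of 10 neuronal genes were called (median -0.14), and 0 of 4 tested genes of perivascular macrophages and monocytes were called (3 above and 1 below 0). Astrocyte genes summed to 2253 and 2321 scaled FPKM in the KO controls against 1755 and 1721 in the Y402F controls. Most of that gap lay in Aldoc alone, at 1415 and 1468 against 944 and 919. Of the 10 astrocyte genes 6 had a difference above 0 and 4 below, among the latter Slc1a3 (144 and 148 against 181 and 173). Blood genes summed to 577 and 578 against 302 and 316. The part of these other cell types in the differences of C1q and Tyrobp was not tested.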

How the data were processed

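RNA-seq of 8 hippocampal libraries was used, grouped by their titles. For the 4 mutant libraries the authors deposited, per Entrez gene, its expected count, its transcript length and its FPKM, as the file headers name them. For the 4 controls the authors deposited FPKM per Ensembl gene with confidence bounds, in Cufflinks layout and without counts. The submitters' processing notes list HISAT, Bowtie 1 and mm9 for all samples, and Cufflinks for the controls; the control positions nevertheless equal GENCODE M21 on GRCm38 for the 10 genes, and are given on that build. Mutant totals were 5756180 to 6017219 expected counts, and 81.1 to 81.7% of the genes listed for a library had a count whole within 0.005. The 2 libraries of KO and of Y402F differed by more than sampling noise (chi-square per degree of freedom 5.09 and 7.13).

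Tables were joined by symbol (17593 genes) or the GENCODE Entrez table (80). FPKM was divided by median-of-ratios factors (0.946 to 1.056). Genes with a mean of 1 FPKM or more entered limma 3.58.1 with a trend, on log2(scaled FPKM + 1), 4 groups and 4 residual degrees of freedom; differences understate changes of low genes. KO against Y402F used edgeR 4.0.16 (quasi-likelihood test, TMM scaling) on the rounded expected counts of 12946 genes, with 2 residual degrees of freedom. Calls had a Benjamini-Hochberg adjusted p under 0.05 over all genes tested. DESeq2 1.42.0 was an alternative, beside other pseudocounts, filters, scalings, a length correction, a replicate block, a sex term and leaving out single libraries. Scripts ran in Python 3.11.15 (matplotlib 3.10.9, scipy 1.17.1, numpy 2.4.6, pandas 2.3.3) and R 4.3.3. Named genes were the 10, Ptk2b, up to 4 genes per list with the smallest p, and the 8 genes of most similar profile. The markers Cd163, Mrc1, Ccr2, Slc17a7, Xist and Ddx3y were named outside this rule. The 10 genes and the lists were chosen with earlier results of these data known.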

Additional observations from a re-analysis of the deposited data

How the results depend on the processing

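KO against Y402F had 0 of the 10 genes called under every alternative run, as did the difference of the mutant effects. Over all genes, KO against Y402F had 1 call by edgeR, 2 by DESeq2, 5 by limma (7 with only the mutant libraries, chosen after seeing the data), 4 with the replicate block and 16 to 34 with 1 library left out; the difference of effects had 4, 7 without a filter, 135 with the sex term and 6 to 16 with 1 library left out; and KO against its controls went from 4868 to 3107 without KO 1. The wild-type pairs had 5 of the 10 called in the reported analysis, 5 with a pseudocount of 0.1, without scaling and with the replicate block, 4 without a filter and with the sex term, 3 when length-corrected, 2 with only the 4 control libraries (an alternative chosen after seeing the data), and 0 to 4 with 1 library left out. Their calls over all genes went from 1036 to 513 without a filter, 534 length-corrected, 325 with only the controls and 176 to 264 with 1 library left out. KO against its controls had 3 called, 6 without scaling; Y402F against its controls had 1 called, 2 without scaling, 4 length-corrected, 3 with the sex term, and 1 to 2 with 1 library left out. Same-numbered libraries deviated together in KO and Y402F only (correlation 0.204, with the other pairs at -0.0314 to 0.0488). The numbers were thus not taken to pair them, and the block changed no call among the 10. In KO and in Y402F library 1 had the female and library 2 the male pattern. For KO against Y402F the block is therefore also a block for sex pattern, which the reported edgeR fit left out. Without scaling the median of all genes was at -0.12 in each mutant against its controls. The values that changed sign were not called in the reported analysis. Without scaling Tmem119 was at -0.030 in KO against its controls. When length-corrected, C1qc was at 0.10 there, Cx3cr1 at -0.044 and Aif1 at 0.12 in the difference of effects, and Tyrobp at -0.067 in KO against Y402F. With the sex term Csf1r was at 0.21 between the wild-type pairs and -0.10 in the difference of effects, and Tmem119 at -0.050 in KO against its controls. With 1 library left out, KO against its controls ranged from -0.11 to 0.31 for Tmem119 and -0.20 to 0.023 for Csf1r. The difference of effects ranged from -0.12 to 0.17 for Cx3cr1, -0.79 to 0.033 for Tmem119 and -0.38 to 0.11 for Aif1. KO against Y402F ranged from -0.13 to 0.17 for Tyrobp, -0.00126 to 0.32 for Cx3cr1, -0.13 to 0.23 for P2ry12, -0.031 to 0.40 for Tmem119 and -0.20 to 0.45 for Csf1r. Beyond fewer genes tested or fewer libraries, the cause was not tested. Counts of 9 to 20 limit Cd52 and of 17 to 30 limit Aif1 in the mutants.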
